A study of Mus musculus with 12 samples.

Results

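The genes described here are 6 genes whose transcripts mark the detoxifying lining of the nose: the cytochrome P450 genes Cyp2g1, Cyp2a5, Cyp2f2 and Cyp1a2, the glucuronosyltransferase gene Ugt2a1 and the lipid carrier gene Sec14l3. They were taken by symbol from a deposited table of 23358 gene rows, and each symbol was found on 1 row. The set was selected on the measured counts of these same 12 samples, by which its members are high in C57BL/6 wild type and near 0 in BALB/c, so their levels are given as a description, with no test. RNA was sequenced from mouse frontal bone at postnatal day 3, dissected together with the coronal suture, the frontonasal suture and the nasal bone. The study crossed genotype with strain in 4 groups of 3 samples: wild type C57BL/6 (replicates 1 to 3), FGFR2C342Y/+ C57BL/6 (replicates 4 to 6), wild type BALB/c (replicates 13 to 15) and FGFR2C342Y/+ BALB/c (replicates 16 to 18). FGFR2C342Y/+ mice, called mutants below, are heterozygous for the C342Y substitution in the receptor Fgfr2 and are used as a model of Crouzon syndrome, a disorder of early suture closure. Both Fgfr2 alleles are counted together, so the counts do not check the genotype labels. The labels do not say whether samples came from separate litters or pooled animals, so the p-values given for other genes measure only the spread between these samples.

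The olfactory mucosa holds odorant-sensing neurons, the sustentacular cells that surround them, and the secretory Bowman glands. Sustentacular and gland cells are rich in enzymes that clear inhaled chemicals and odorants. Cytochrome P450 enzymes add an oxygen to such compounds with electrons passed on by Por, and transferases such as Ugt2a1 then attach a sugar acid that makes the product soluble in water. Of the 6 genes, Sec14l3 is not known as an enzyme: it belongs to the Sec14-like proteins, which bind lipids.

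Total gene counts ran from 27.2 M to 46.5 M per library. No gene had an odd count in any library, so 1 sequenced read pair added 2 to a count. Levels are given as CPM, the usual counts-per-million scale, with each library's size adjusted for its composition. A count of 0 in a library allows up to 3 read pairs, which is between 0.129 and 0.225 CPM, and this limit covers counting error only. The run identifiers in the labels put all C57BL/6 samples on 1 flow cell and all BALB/c samples on another, so strain and flow cell cannot be told apart. Summed counts of 4 Y-linked genes were 5164 to 6018 in the C57BL/6 wild type samples, while in each other group 1 of 3 samples held 4846 to 6876 and the remaining samples at most 60. Xist was at 28 to 34 counts where all 3 samples had high Y-linked counts, and at 12312 to 25578 where these were at most 60. Sex was thus partly tied to genotype within C57BL/6 and to strain among wild types. The tests fitted no term for sex, and its part in these comparisons was not tested. In bulk tissue, fewer cells of a type and less RNA per cell cannot be told apart.

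Cyp2g1, Cyp2a5 and Cyp2f2 lie in 1 cluster of P450 genes on chromosome 7 of build mm10, at 26808927 to 26821197, 26835339 to 26843264 and 27119955 to 27133660. Cyp1a2 lies on chromosome 9 (57676937 to 57683655), Ugt2a1 on chromosome 5 (87459490 to 87490871) and Sec14l3 on chromosome 11 (4064853 to 4078990). The GENCODE transcripts give these genes 7 to 12 exons and coding sequences of 1203 to 1584 bases. RefSeq's promoter sequences for GRCm38.p6, the assembly behind mm10, matched 5 of the 6 genes. The 150 bases before the start of each are printed 5′ to 3′ on the gene's own strand, because these genes lie on 4 chromosomes and they were high in the same libraries. Capitals mark TTGGC or its reverse complement GCCAA, the core of a nuclear factor I site, and TATAAA or TTTATA, the TATA box, wherever they occurred on either strand.
Cyp2a5, chr7:26835189-26835338, plus strand: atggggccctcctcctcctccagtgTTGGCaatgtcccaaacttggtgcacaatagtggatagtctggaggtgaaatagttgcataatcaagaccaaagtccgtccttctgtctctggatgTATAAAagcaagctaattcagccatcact
Cyp2f2, chr7:27119805-27119954, plus strand: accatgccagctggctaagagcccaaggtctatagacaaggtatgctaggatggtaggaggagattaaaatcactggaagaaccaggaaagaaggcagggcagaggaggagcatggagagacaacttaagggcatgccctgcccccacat
Cyp1a2, chr9:57683656-57683805, minus strand: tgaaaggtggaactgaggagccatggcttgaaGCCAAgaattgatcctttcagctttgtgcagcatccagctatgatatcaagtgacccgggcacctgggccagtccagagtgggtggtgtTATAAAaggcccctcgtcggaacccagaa
Ugt2a1, chr5:87490872-87491021, minus strand: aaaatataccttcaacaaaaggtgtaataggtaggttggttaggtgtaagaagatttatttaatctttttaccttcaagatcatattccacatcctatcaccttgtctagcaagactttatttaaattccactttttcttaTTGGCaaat
Sec14l3, chr11:4064703-4064852, plus strand: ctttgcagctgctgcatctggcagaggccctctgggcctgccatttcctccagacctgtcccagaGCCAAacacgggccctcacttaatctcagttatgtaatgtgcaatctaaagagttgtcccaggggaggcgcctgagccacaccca

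TTGGC occurred on either strand in 4 of these 5 windows, starting 125 bases before the gene in Cyp2a5, 118 in Cyp1a2, 85 in Sec14l3 and 9 in Ugt2a1. Of 32851 RefSeq windows of the same length, 29.0% held it. TATAAA occurred in 2 windows, 29 bases before the start in both Cyp2a5 and Cyp1a2, and in 7.57% of all windows. GCGTG, the core of the site bound by the aryl hydrocarbon receptor with its partner, was also searched on both strands. It was in 0 of the 5 windows and in 20.5% of all windows. The 3 motifs do not overlap one another in these windows. Such matches describe letters, not bound sites.

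All 6 genes were high in the 3 C57BL/6 wild type libraries and in 1 of the 3 C57BL/6 mutant libraries, replicate 4. They were at or near 0 in the other 8 libraries. Summed over the 6 genes, C57BL/6 wild type replicates 1, 2 and 3 held 446.2, 224.0 and 252.3 CPM, from 8588, 3719 and 4706 read pairs. C57BL/6 mutant replicate 4 held 135.7 CPM from 3004 read pairs. Mutant replicates 5 and 6 held 0.340 and 0.647 CPM, from 7 and 12 read pairs. Within the C57BL/6 mutant group, replicate 4 thus stood far apart from replicates 5 and 6, and the group's mean describes none of the 3. The sum was 0 in each BALB/c wild type library, and 0.120, 0.0430 and 0.197 CPM in BALB/c mutant replicates 16, 17 and 18, from 2, 1 and 4 read pairs.

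**Figure D1:**
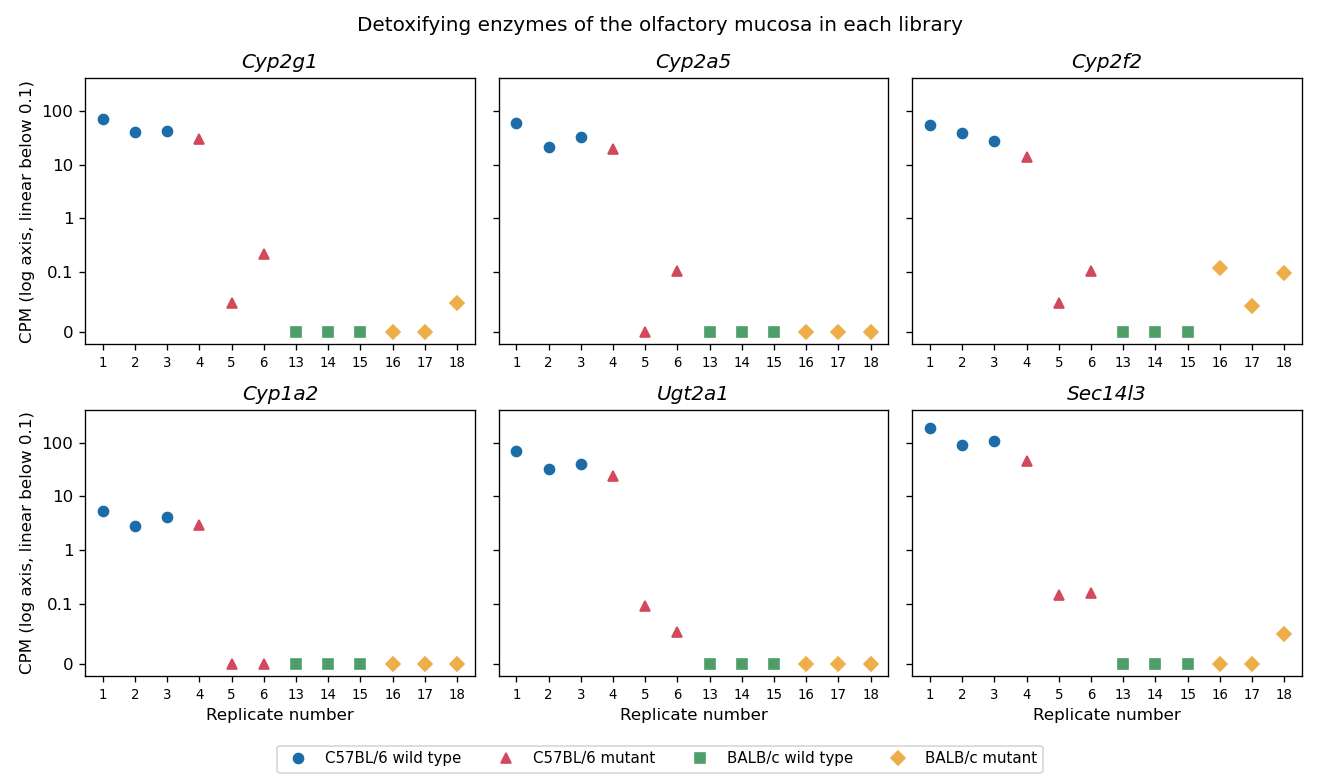
Each panel shows 1 of the 6 genes, with CPM on a log axis that turns linear below 0.1 and 1 point for each of the 12 libraries, named by replicate number and marked by group. In each panel C57BL/6 replicates 1 to 4 lie above 1 CPM, and the other 8 libraries lie at 0 or below 0.3 CPM.

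Cyp2g1 encodes a P450 made almost only in the olfactory mucosa and known to hydroxylate steroids. Its level was 71.9, 40.3 and 41.9 CPM in C57BL/6 wild type replicates 1 to 3, a mean of 51.4 CPM ± 17.8 (SD, n = 3). It was 29.9, 0.0485 and 0.216 CPM in C57BL/6 mutant replicates 4 to 6. The 3 mutant libraries all lay below the lowest wild type library, and replicate 4 lay far closer to wild type than to the other mutants. Cyp2g1 had 0 counts in 5 of the 6 BALB/c libraries and 2 counts, 1 read pair, in mutant replicate 18. Against the 0 counts of BALB/c wild type, its C57BL/6 wild type mean was at least 263-fold higher, with the bound set by 3 read pairs in each BALB/c library.

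Cyp2a5 encodes the P450 that hydroxylates coumarin and also acts on nicotine and nitrosamines. It was at 60.5, 21.1 and 32.0 CPM in the C57BL/6 wild type libraries, a mean of 37.9 CPM ± 20.3 (SD, n = 3). In the C57BL/6 mutants it was at 19.9 CPM in replicate 4, at 0 in replicate 5 and at 0.108 CPM in replicate 6. Replicate 4 was close to wild type replicate 2 here: their exact 95% Poisson intervals, of 18.1 to 21.9 and 19.0 to 23.5 CPM, overlapped. These intervals cover counting error only, not the spread between samples. Cyp2a5 had 0 counts in all 6 BALB/c libraries, and the C57BL/6 wild type mean was at least 194-fold above BALB/c wild type.

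Cyp2f2 encodes a P450 known for turning naphthalene into a toxic product in airway and nasal cells. Its level was 54.6, 38.4 and 27.1 CPM in the C57BL/6 wild type libraries, a mean of 40.0 CPM ± 13.8 (SD, n = 3). It was 13.8, 0.0485 and 0.108 CPM in C57BL/6 mutant replicates 4 to 6. Replicate 4 thus held about as much less than the lowest wild type library as that library held less than the highest, on a ratio scale. Cyp2f2 was the only one of the 6 genes with counts in all 3 BALB/c mutant libraries, 4, 2 and 4 counts in replicates 16 to 18, against 0 in the 3 BALB/c wild type libraries. These are 1 or 2 read pairs a library and lie under the 3 read pairs that a count of 0 allows, so no difference between the BALB/c genotypes was detectable at this depth. The C57BL/6 wild type mean was at least 205-fold above BALB/c wild type.

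Cyp1a2 encodes the P450 that clears caffeine and aromatic amines, best known from liver and a target of the aryl hydrocarbon receptor. It was the lowest of the 6 genes, at 5.35, 2.77 and 4.07 CPM in the C57BL/6 wild type libraries, a mean of 4.07 CPM ± 1.29 (SD, n = 3). C57BL/6 mutant replicate 4 held 2.98 CPM, within the wild type range, and replicates 5 and 6 had 0 counts. It had 0 counts in all 6 BALB/c libraries. The C57BL/6 wild type mean was at least 20.8-fold above BALB/c wild type, the loosest bound of the 6 because the gene itself was low.

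Ugt2a1 encodes the olfactory glucuronosyltransferase, which conjugates odorants and steroids. Its counts were at 71.1, 32.3 and 39.3 CPM in the C57BL/6 wild type libraries, a mean of 47.6 CPM ± 20.7 (SD, n = 3). The C57BL/6 mutants were at 24.2, 0.0970 and 0.0539 CPM in replicates 4 to 6. Again all 3 mutant libraries lay below wild type, with replicate 4 nearest to it. Ugt2a1 had 0 counts in all 6 BALB/c libraries, and the C57BL/6 wild type mean was at least 243-fold above BALB/c wild type.

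Sec14l3 encodes a Sec14-like protein with a lipid-binding pocket. It had the most counts of the 6, at 182.8, 89.1 and 107.9 CPM in the C57BL/6 wild type libraries, a mean of 126.6 CPM ± 49.6 (SD, n = 3). The C57BL/6 mutants held 44.9, 0.146 and 0.162 CPM in replicates 4 to 6. The values of replicates 5 and 6 came from 6 counts each, or 3 read pairs, the most that a count of 0 allows. In BALB/c it had 2 counts in mutant replicate 18 and 0 in the other 5 libraries. The C57BL/6 wild type mean was at least 648-fold above BALB/c wild type, the highest of the 6 bounds.

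The spread among C57BL/6 wild type libraries was shared by the 6 genes. Replicate 1 was the highest of the 3 for each gene, by 1.56-fold (Cyp1a2) to 2.28-fold (Cyp2a5) over the mean of replicates 2 and 3. The bounds against BALB/c wild type rest in part on it. Without replicate 1 they were 210-fold for Cyp2g1, 136-fold for Cyp2a5, 168-fold for Cyp2f2, 17.5-fold for Cyp1a2, 183-fold for Ugt2a1 and 504-fold for Sec14l3. Coefficients of variation ran from 31.8% (Cyp1a2) to 53.7% (Cyp2a5). In C57BL/6 mutant replicate 4 the genes held unequal fractions of the wild type mean: 0.346 for Cyp2f2, 0.354 for Sec14l3, 0.509 for Ugt2a1, 0.526 for Cyp2a5, 0.582 for Cyp2g1 and 0.734 for Cyp1a2. This is 1 library, so the order of these fractions has no replicate check. Over the 3 C57BL/6 mutants the SD exceeded the mean for each gene (10.1 CPM ± 17.2, n = 3, for Cyp2g1), and without replicate 4 the Cyp2g1 mean was 0.132 CPM.

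Levels of different genes were compared only per unit length, with the authors' RPKM. In C57BL/6 wild type the mean RPKM was 27.2 ± 12.2 for Sec14l3, 23.4 ± 9.44 for Cyp2g1, 18.8 ± 11.1 for Cyp2a5, 18.6 ± 7.36 for Cyp2f2, 15.7 ± 7.70 for Ugt2a1 and 1.81 ± 0.658 for Cyp1a2 (SD, n = 3). Each neighbour in this order differed from the next by less than its SD, except that Cyp1a2 stood well below the other 5. Its highest wild type value was 2.50 RPKM, and the lowest of any other member was 10.04 RPKM (Cyp2a5, replicate 2). The length that the authors listed for Sec14l3 is 3928 bases and the GENCODE transcript has 2686, so its RPKM depends on the gene model. In each wild type library it was first of the members with either length.

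Relative levels within a library were taken where the 6 genes together held at least 100 read pairs, which left the 3 C57BL/6 wild type libraries and mutant replicate 4. Sec14l3 made up 25.7%, 24.7% and 27.2% of the summed RPKM in wild type replicates 1 to 3 and 19.8% in mutant replicate 4. Cyp2g1 made up 21.4%, 23.7% and 22.4% in wild type and 27.9% in mutant replicate 4. With the authors' lengths the first place in the order was thus held by Sec14l3 in the 3 wild type libraries and by Cyp2g1 in replicate 4. With the GENCODE lengths Sec14l3 was first in all 4 libraries, at 33.3% to 36.5% in wild type and 27.5% in replicate 4, where Cyp2g1 was at 25.97%. Cyp2f2 made up 16.6%, 22.9% and 14.7% in wild type and 13.1% in mutant replicate 4, so that its ratio to Cyp2g1 was 0.773, 0.968 and 0.660 in wild type and 0.471 in the mutant. Cyp2a5 made up 13.4% in wild type replicate 2, against 19.5%, 18.5% and 20.1% in wild type replicates 1 and 3 and mutant replicate 4. Ugt2a1 stayed between 13.7% and 16.3%, and Cyp1a2 between 1.56% and 2.73%.

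**Figure D2:**
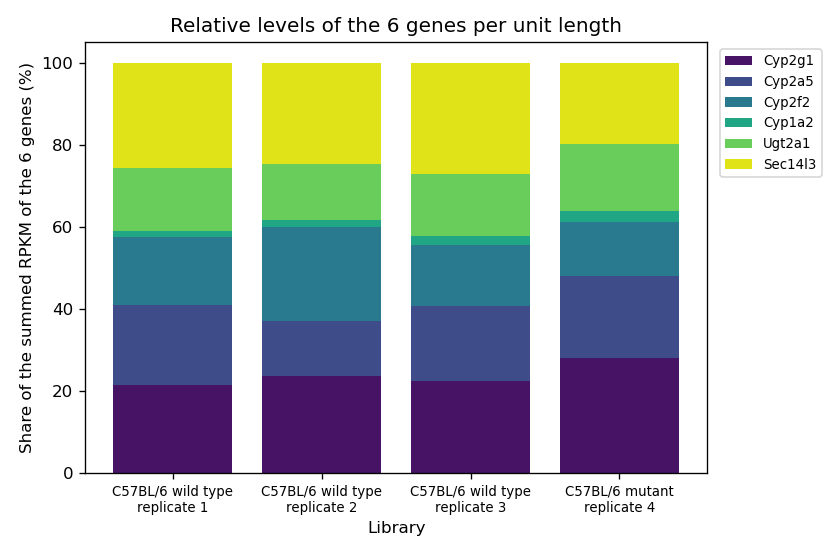
Stacked bars show the share of each gene in the summed RPKM of the 6 genes, in percent, for the 4 libraries with at least 100 read pairs of them. The bars are similar in make-up, with a smaller Sec14l3 part (19.8%) and a larger Cyp2g1 part (27.9%) in mutant replicate 4 than in the wild type libraries.

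Ugt2a1 shares most of its transcript with Ugt2a2, a second glucuronosyltransferase made from the same locus. Both have 7 exons in GENCODE, and 5 of them have the same coordinates. The joined sequences around the last base of exon 2 and the first of exon 3 show where the 2 genes become identical, with the shared exon 3 in capitals.
Ugt2a1, chr5:87486029-87486058 joined to chr5:87465527-87465556, minus strand: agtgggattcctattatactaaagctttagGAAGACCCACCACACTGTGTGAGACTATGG
Ugt2a2, chr5:87474390-87474419 joined to chr5:87465527-87465556, minus strand: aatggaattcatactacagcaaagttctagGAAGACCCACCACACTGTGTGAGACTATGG

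The longest run common to both transcripts was 1774 bases, and 68.4% of the 50-base words of Ugt2a1 also occurred in Ugt2a2. The share found in transcripts of any other gene was 97.0%. Counts of Ugt2a1 and Ugt2a2 are therefore uncertain, since reads from the shared exons cannot be given to either. Ugt2a2 had 286, 100 and 172 counts in C57BL/6 wild type replicates 1 to 3, against 2738, 1072 and 1468 for Ugt2a1. It had 76 counts in mutant replicate 4 and 0 in the other 8 libraries, so that both genes were detected together where Ugt2a2 had counts.

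Cyp2a5 has a close copy as well, Cyp2a4, a steroid hydroxylase. Their coding sequences of 1482 bases are 98.4% identical, with 23 differences. The 60 coding bases printed here, from exon 2, have 3 of them, in capitals.
Cyp2a5, chr7:26835811-26835870, plus strand: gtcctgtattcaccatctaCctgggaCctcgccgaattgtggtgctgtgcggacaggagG
Cyp2a4, chr7:26307666-26307725, plus strand: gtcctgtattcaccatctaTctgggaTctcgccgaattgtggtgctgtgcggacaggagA

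Cyp2a4 had 14, 6 and 12 counts in the C57BL/6 wild type libraries, 4 in mutant replicate 4 and 0 in the other 8. The longest run without a difference was 216 bases, and 31.0% of the 50-base words of Cyp2a5 also occurred in Cyp2a4. Counts of Cyp2a4 and Cyp2a5 can therefore exchange reads, although Cyp2a4 held far fewer in the 4 libraries where it had any. The share of words found in any other gene was 40.8% for Cyp2a5, 5.79% for Cyp2g1, 4.97% for Cyp1a2 (all with Cyp1a1) and 0 for both Cyp2f2 and Sec14l3, which share none.

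Neighbours on the chromosomes did not all follow the 6 genes. Between Cyp2a5 and Cyp2f2 lie Cyp2a22 and Cyp2a12, and both had 0 counts in all 12 libraries. Cyp2b19, next to Cyp2g1, had 8, 6 and 4 counts in C57BL/6 wild type, 2 in mutant replicate 4 and 0 in the rest. Cyp2t4, beyond Cyp2f2, had 24 to 90 counts in every library. Egln2, an oxygen-sensing hydroxylase at the edge of the cluster, was at 47.2 to 60.9 CPM throughout. Cyp2b19, Cyp2g1 and Cyp2a5 lie next to each other in this stretch of chromosome 7 and had their highest levels in the same 4 libraries. For Cyp2b19 these were few counts, of which 6, 4 and 2 lie within the 3 read pairs that a count of 0 allows. Cyp2a22 and Cyp2a12 lay at 0 between Cyp2a5 and Cyp2f2.

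On chromosome 5 the 3 sulfotransferase genes beside Ugt2a1 and Ugt2a2 had the same libraries high. Sult1e1, which sulfates estrogens, was at 13.6, 5.30 and 5.63 CPM in C57BL/6 wild type, 3.07 CPM in mutant replicate 4, 0.0539 CPM in mutant replicate 6 and 0 elsewhere. Sult1d1, which sulfates catecholamines, was at 12.9, 4.16 and 5.31 CPM in wild type and 2.94 CPM in mutant replicate 4. Sult1b1 was at 3.38, 0.783 and 1.02 CPM in wild type and 1.17 CPM in mutant replicate 4. Sult1d1 and Sult1b1 had 0 counts in the other 8 libraries. Against BALB/c wild type, where all 3 had 0 counts, the C57BL/6 wild type mean was at least 41.9-fold higher for Sult1e1, 38.2-fold for Sult1d1 and 8.83-fold for Sult1b1. These bounds rest in part on wild type replicate 1, and without it they were 27.96-fold, 24.2-fold and 4.61-fold.

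On chromosome 11 Sec14l3 sits between Sec14l4 and Mtfp1, with Sec14l2 beyond. Sec14l4 was at 1.71, 1.20 and 1.07 CPM in C57BL/6 wild type and 0.497 CPM in mutant replicate 4, with 4 counts in BALB/c wild type replicate 15 and 0 in the other 7 libraries. Sec14l2 had a floor that Sec14l3 lacked: it was at 51.1, 26.1 and 33.0 CPM in C57BL/6 wild type, 20.5 CPM in mutant replicate 4 and 4.96 to 9.69 CPM in the other 8 libraries. Mtfp1, a mitochondrial fission gene, was at 1.13 to 2.78 CPM in all 12. On chromosome 9 Cyp1a1, the nearest relative of Cyp1a2 and its neighbour, had 0 to 6 counts in every library.

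**Figure D3:**
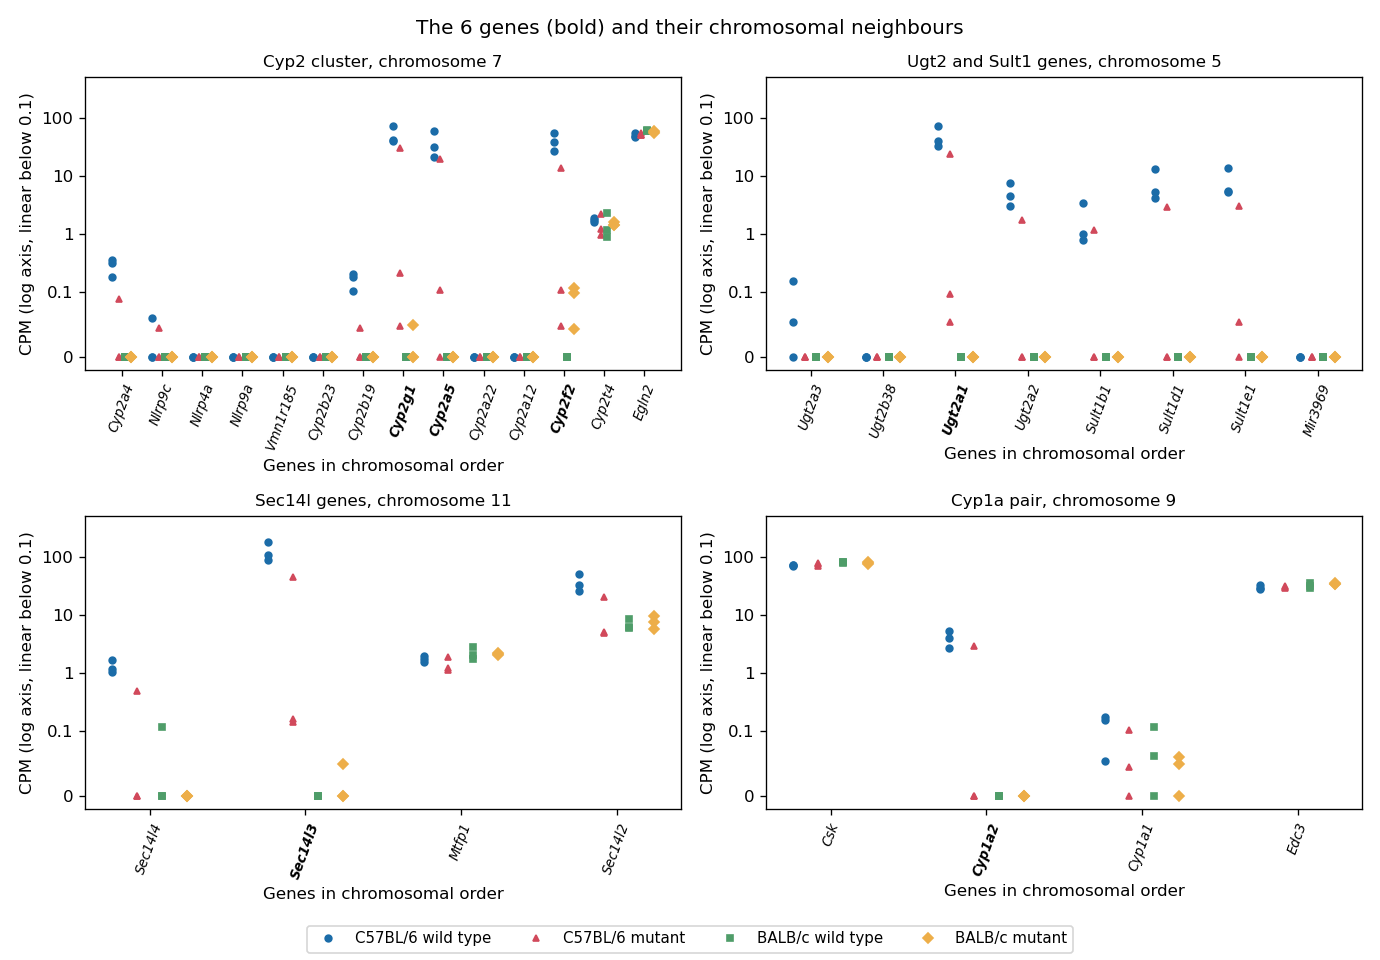
Each panel shows CPM (log axis, linear below 0.1) of the genes in 1 chromosomal stretch in chromosomal order, with 1 point per library marked by group and the 6 genes in bold. Cyp2a22 and Cyp2a12 are at 0 between Cyp2a5 and Cyp2f2, while Egln2, Csk and Edc3 are level across the groups and Sult1b1, Sult1d1 and Sult1e1 have points above 0.5 CPM in C57BL/6 libraries only.

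Outside the 6 genes, the 8 whose log2 CPM was most like their mean over the 12 libraries had Pearson correlations of 0.995 to 0.999. They were Insm1, Rtp1, Fezf1, Uncx, Sult1e1, Esrp1, Aox3l1 and Olfr536. Insm1, a zinc finger factor of developing neurons, was at 21.2, 13.01 and 11.2 CPM in C57BL/6 wild type and 8.04 CPM in mutant replicate 4, and under 0.06 CPM in the others. Rtp1, which carries odorant receptors to the cell surface, was at 39.5, 20.8 and 22.8 CPM in wild type and 13.8 CPM in mutant replicate 4. Aox3l1, an aldehyde oxidase, was at 61.8, 31.4 and 33.8 CPM in wild type and 22.7 CPM in mutant replicate 4, and 0.124 to 0.437 CPM in the others. The 12 libraries fall into a high and a low cluster, and a correlation over all 12 can be set by that gap alone. The values describe likeness in these libraries and share their libraries and depth.

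Each of the 6 genes also had its own nearest genes. Those nearest to Cyp2a5 were Uncx, Olfr536 and Fezf1, and those nearest to Cyp1a2 were Sftpd, Otx2 and Sp8. Cyp2f2 came closest to Aqp4, a water channel that was at 16.4, 10.48 and 8.58 CPM in C57BL/6 wild type and 6.42 CPM in mutant replicate 4. Insm1 was the nearest to Cyp2g1, Ugt2a1 and Sec14l3. The other genes among the 3 nearest were Rtp2 and Bpifa1 for Cyp2g1, Olig2 and Esrp1 for Cyp2f2, Tmprss2 and Lingo2 for Ugt2a1, and Aox3l1 and Krt23 for Sec14l3.

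Marker genes of several nasal cell types moved with the 6 genes, and their part in these levels was not tested. Ermn, a cytoskeletal gene of sustentacular cells, was at 17.8, 7.59 and 9.44 CPM in C57BL/6 wild type, 5.83 CPM in mutant replicate 4 and 0.240 to 0.988 CPM in the other 8 libraries. Omp, the olfactory marker protein of mature olfactory neurons, was at 99.97, 48.8 and 58.5 CPM in wild type, 36.1 CPM in mutant replicate 4 and 0.300 to 0.703 CPM elsewhere. Like the 6 genes, both had replicate 1 highest among wild type libraries. Mutant replicate 4 was below all 3 wild type libraries for both markers and for each of the 6 genes except Cyp1a2. Summed over the 8 sustentacular markers, C57BL/6 wild type libraries held 296 to 384 CPM, C57BL/6 mutants 247 to 300 CPM, BALB/c wild type 180 to 194 CPM and BALB/c mutants 182 to 204 CPM. Notch2, a gene expressed in all 12 libraries, held 173.6 of the 384 CPM in wild type replicate 1 and 178 of the 296 CPM in wild type replicate 2. Notch2 and Hes1 were higher in each C57BL/6 mutant than in any wild type library of that strain, at 196 to 201 against 173.6 to 179 CPM and at 49.3 to 59.3 against 39.2 to 44.9 CPM. Hes1 was also higher in BALB/c, at 51.7 to 65.4 CPM, and Notch2 lower, at 113 to 145 CPM. The 12 neuronal markers summed to 273 to 426, 139 to 242, 94.7 to 101 and 92.5 to 100 CPM in the same group order, and up to 6 of them were at 0 in a BALB/c library. Adcy3, an adenylate cyclase of olfactory cilia, moved the other way in C57BL/6: it was at 83.03 to 93.2 CPM in wild type and 119, 124 and 133 CPM in mutant replicates 4, 5 and 6. It made up most of the neuronal sum in mutant replicates 5 and 6 and in BALB/c, where it was at 71.2 to 81.5 CPM. The 5 Bowman gland markers summed to 59.6 to 96.4, 22.2 to 45.4, 29.4 to 38.5 and 32.8 to 54.6 CPM, most of it Sox9, which cartilage also expresses.

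Markers of other epithelia followed the 6 genes less evenly. Scgb1a1 and Scgb3a2, the defining markers of airway club cells, had 0 counts in all 12 libraries. Bpifa1, a secreted airway and nasal protein, was at 286.7, 59.5 and 110.3 CPM in C57BL/6 wild type, 39.4 CPM in mutant replicate 4 and 0 to 0.269 CPM in the other 8. It made up most of the secretory sum in those 4 libraries. The 6 markers held 63.9 to 311, 0.243 to 44.1, 0.618 to 1.11 and 0.480 to 0.689 CPM in the 4 groups, in the order above, and Bpifa1 was at 0 in 6 of the 8 low libraries. The 4 basal epithelium markers summed to 18.3, 197 and 8.20 CPM in C57BL/6 wild type replicates 1 to 3 and 4.65 CPM in mutant replicate 4. Their highest library was thus wild type replicate 2, where Krt5 was at 81.6 CPM, while the 6 genes were lowest there among wild type libraries when summed. The 8 multiciliated cell markers summed to 37.1 to 45.2 CPM in C57BL/6 wild type and 19.5 to 33.5 CPM over the other 9 libraries. Tppp3 was the highest of these markers in each library but wild type replicate 1, where it was at 12.4 CPM, its lowest, and it reached 26.4 CPM in BALB/c mutant replicate 16. Foxj1, the regulator of motile cilia, was at 14.3, 5.84 and 6.86 CPM in C57BL/6 wild type, 3.98 CPM in mutant replicate 4 and 1.51 to 2.40 CPM elsewhere.

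The 8 hepatocyte markers summed to at most 1.45 CPM in any library, and Cyp3a11 and Tat had 0 counts in all 12. Markers of liver, where Cyp1a2, Cyp2a5 and Cyp2f2 are also expressed, were near 0 in the libraries that held 19.9 to 60.5 CPM of Cyp2a5. The source of these Cyp2a5 counts was not tested. The 7 bone markers were high everywhere, at 66382 to 152369 CPM. The lowest bone sum, 66382 CPM, was in C57BL/6 wild type replicate 1, the library with the highest sum of the 6 genes, and its part in that sum was not tested. Sex-linked counts did not follow the 6 genes within the C57BL/6 mutants. Replicate 4, with 135.7 CPM of the 6 genes, had 60 Y-linked and 25410 Xist counts. Replicate 5 had 42 and 25578 of these, and replicate 6, with 6876 Y-linked counts, held 0.647 CPM of the 6 genes.

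**Figure D4:**
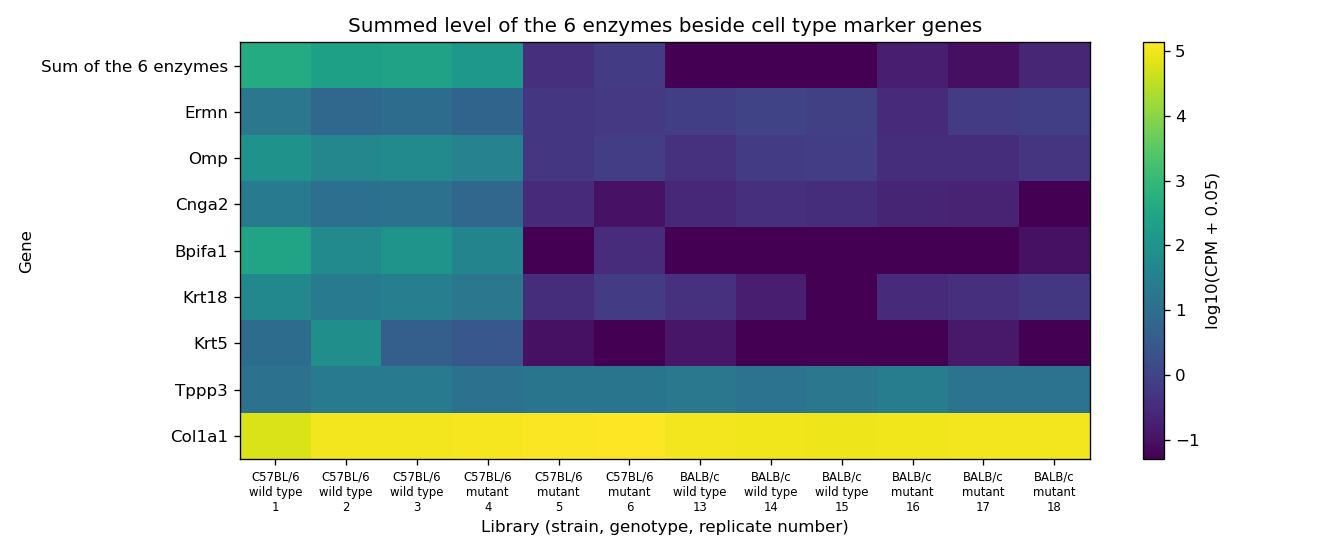
The colour scale is log10 of CPM plus 0.05, with libraries in columns and the summed level of the 6 enzymes and single marker genes in rows. The top row and the rows of Ermn, Omp, Cnga2, Bpifa1 and Krt18 are bright in C57BL/6 replicates 1 to 4, whereas Krt5 is brightest in replicate 2, and Tppp3 and Col1a1 are even.

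The other genes of drug and odorant metabolism were read from 6 lists with 183 genes in all, of which 42 had 0 counts in all 12 libraries and 98 passed the filter on low counts. Within C57BL/6, 26 of the 98 passed the edgeR quasi-likelihood test of mutant against wild type at an adjusted p under 0.05. Of all 16190 genes tested, 23.9% passed. The mutants were higher for 7 of the 26 and lower for 19, against 11.3% and 12.6% of all genes tested. With all 12 libraries the share called was near that of all genes. The median log2 difference over the 98 genes was -0.19, and over all genes tested it was close to 0. Without mutant replicate 4 the count was 50 of 101 (49.5%), against 29.3% of all genes in that fit. It was 13 of 100 without wild type replicate 1, 15 of 101 without mutant replicate 5 and 13 of 101 without mutant replicate 6, against 13.3%, 13.8% and 10.5% of all genes. With total-count scaling, which moved the median of all genes by -0.20, it was 2 higher and 29 lower.

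Of 49 tested conjugating and redox enzymes 12 fell in the C57BL/6 mutants and 3 rose, 30.6% in all, against 23.9% of all genes tested. The number called was 7 or 8 without wild type replicate 1 or mutant replicate 5 or 6, and 29 without mutant replicate 4. Of all genes, 10.5% to 13.8% and 29.3% were called in those fits. Gstm1, a glutathione transferase, was at 325, 138 and 181 CPM in wild type and 93.9, 13.5 and 14.7 CPM in mutant replicates 4 to 6, a log2 difference of -2.39 (SE 0.61, adjusted p 0.0168, edgeR). Ephx1, the microsomal epoxide hydrolase, was at 62.3, 29.4 and 37.1 CPM in wild type and 20.7, 5.14 and 5.82 CPM in the mutants, a log2 difference of -2.02 (SE 0.45, adjusted p 0.0092, edgeR). In both genes mutant replicate 4 again lay nearest to wild type, and the group ranges did not overlap. Among the genes called with a mean of at least 1 CPM, Gsta3 (-2.64), Fmo2 (-2.41), Aldh1a1 (-2.40), Mgst1 (-1.09) and Gsta4 (-1.06) were the others with the largest log2 falls. The calls of Gstm1, Gsta3, Fmo2, Aldh1a1 and Mgst1 were each lost without wild type replicate 1, and also without 1 to 3 others among wild type replicate 2 and mutant replicates 5 and 6, with adjusted p up to 0.115 (edgeR). Ephx2, the soluble epoxide hydrolase, rose by 0.72 (SE 0.15, adjusted p 0.00669, edgeR), and Fmo1 and Gstp1 rose by 0.39 and 0.30.

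Between the C57BL/6 genotypes 11.3% of all genes tested were called higher and 12.6% lower, the shares to set beside each list here. Among 18 tested P450 genes outside the set, Cyp4v3 rose by 0.36 and Cyp2j6 fell by 0.49 on the log2 scale (adjusted p 0.0224 and 0.0188, edgeR). The falls of Cyp2j6 and of the regulator Nfia were not called without wild type replicate 1 or mutant replicate 5. Por, which supplies electrons to all P450 enzymes of this kind, was at 96.2, 68.6 and 70.1 CPM in C57BL/6 wild type and 60.01, 43.9 and 46.7 CPM in the mutants. Its log2 difference was -0.64 (SE 0.14, adjusted p 0.00806, edgeR), and 3 of 9 electron donor and heme genes fell in all. Of 12 tested regulators Tiparp, Rxra and Arnt rose, by 0.65, 0.31 and 0.21, and 2 fell, Arnt2 and Nfia. The 5 regulator calls became 3 without wild type replicate 1 or mutant replicate 5 or 6. Of all genes, 13.3%, 13.8% and 10.5% were called in those fits. The 3 falls among electron donor and heme genes became 5 with total-count scaling, where 28.9% of all genes were called. The rises of Fmo1, Gstp1, Cyp4v3, Rxra and Arnt were not called with total-count scaling or without mutant replicate 6. Those of Gstp1, Arnt and Cyp4v3 were also lost without wild type replicate 3 or mutant replicate 5. The calls of Gstp1 and Arnt were lost without wild type replicate 1 as well, and that of Fmo1 without wild type replicate 2. Ahr, the aryl hydrocarbon receptor, was at 10.4 to 14.1 CPM in wild type and 10.03 to 11.2 CPM in the mutants, and its log2 difference of -0.21 (SE 0.13, adjusted p 0.262, edgeR) did not pass. Of 8 tested Sec14-like genes 1 fell, Sec14l2, by 1.85 (SE 0.47, adjusted p 0.0175, edgeR), a call lost without wild type replicate 1 or mutant replicate 5 or 6. Neither of the 2 tested glucuronosyltransferase genes passed, Ugt2a2 among them (adjusted p 0.127, edgeR). Sec14l4 (-2.93, adjusted p 0.0873, edgeR) and Cyp1b1 (-0.15, adjusted p 0.738, edgeR) did not pass either. Without mutant replicate 4 Ugt2a2 and Sec14l4 were called (adjusted p 0.000287 and 0.00188, edgeR). In the fit to all libraries Cyp2a4 and Cyp1a1 were too low to be tested.

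Within BALB/c, 0 of the 98 genes differed between mutant and wild type by edgeR, against 0.136% of all genes tested, 0.0926% higher and 0.0432% lower. DESeq2 also called 0 of the 98, against 2.00% of all genes. At an unadjusted p under 0.05 edgeR gave 7 of the 98, and 11.7% of all genes. In the test of the difference between the genotype effects of the 2 strains, 8 of the 98 passed (edgeR, adjusted p under 0.05), against 10% of all genes tested, 5.46% with a higher and 4.58% with a lower effect in BALB/c. Without C57BL/6 mutant replicate 4 it was 28 of 101, against 19% of all genes in that fit. It was 1 to 4 without C57BL/6 wild type replicate 1, C57BL/6 mutant replicate 5 or 6 or any 1 BALB/c library, against 3.78% to 6.22% of all genes. With DESeq2 it was 14 (14.3%), against 16.6% of all genes in that fit. With total-count scaling, which moved the median of all genes by 0.23, it was 11 higher and 1 lower in place of 5 and 3.

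Between the wild types of the 2 strains, 54 of the 98 genes passed (edgeR, adjusted p under 0.05), against 48.5% of all genes tested. In BALB/c 20 were higher and 34 lower, against 22.8% and 25.6% of all genes. The median log2 difference over the 98 was -0.14. It was also -0.14 with 6 of the 98, none of them a member, set at their bounds because they had 0 counts in BALB/c wild type. With total-count scaling the split was 11 higher and 35 lower. Besides the sulfotransferases above, Ugt2a2 was lower in BALB/c wild type, by at least 25.7-fold. The call of Sult1b1 was lost with DESeq2 and without C57BL/6 wild type replicate 1 or any 1 of the BALB/c wild type libraries. Cbr2, a carbonyl reductase, was at 234, 135 and 140 CPM in C57BL/6 wild type and 2.10 to 4.33 CPM in BALB/c wild type, a log2 difference of -5.65 (SE 1.25, adjusted p 0.00315, edgeR). Ces1d (-8.18), Aox3l1 (-8.11) and Cyp4f15 (-7.30) had the largest fitted falls among genes with 1 to 7 read pairs in BALB/c wild type, and Sec14l5 (-5.65) lost its call without any 1 of the BALB/c wild type libraries. The log2 difference was -0.74 for Por (adjusted p 0.00129, edgeR) and -2.39 for Sec14l2 (adjusted p 0.00215, edgeR). Other genes of the lists were higher in BALB/c: Gstp1, a glutathione transferase, was at 24.8 to 28.3 CPM against 8.52 to 10.7 CPM, a log2 difference of 1.48 (SE 0.10, adjusted p 9.13e-07, edgeR). Gstt2, Cyp4f16, Gstt1, Aox1, Nat2, Cyp2d22 and Cbr3 were higher by 0.60 to 0.94 on the log2 scale. Of these Nat2 was not called with total-count scaling or without C57BL/6 wild type replicate 3. Of 18 tested P450 genes 3 were higher and 4 lower, and of 8 Sec14-like genes 5 were lower. The Sec14-like count was 1, 2 and 3 without BALB/c wild type replicates 13, 14 and 15, and 3 without C57BL/6 wild type replicate 1, against 39.7% to 42.9% of all genes in those fits.

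Between the mutants of the 2 strains, 26 of the 98 genes passed (edgeR, adjusted p under 0.05), against 36.9% of all genes tested. In BALB/c 16 were higher and 10 lower, against 18% and 18.9% of all genes. With total-count scaling the split was 22 higher and 6 lower, and without C57BL/6 mutant replicate 4 it was 18 and 8. It turned to 14 higher and 17 lower without C57BL/6 mutant replicate 5, and to 16 and 17 without C57BL/6 mutant replicate 6. The log2 differences of Aox3l1 and Ces1d were -4.72 and -4.54 (adjusted p 0.0177 and 0.028, edgeR). Without C57BL/6 mutant replicate 4 they were -0.53 and -0.038 and were not called. Their calls were also lost without any 1 of the BALB/c mutant libraries. Gstp1 was again higher, by 1.14 (SE 0.09, adjusted p 4.94e-06, edgeR), and kept its call in all 11 alternatives. Cyp1b1, a P450 of mesenchymal cells, was at 16.2 to 20.1 CPM in BALB/c mutants and 6.40 to 10.8 CPM in C57BL/6 mutants, a log2 difference of 1.11 (SE 0.28, adjusted p 0.00924, edgeR). Cyp4f18, Gstt2, Gsta4, Gstm2, Mgst1 and Cbr3 were also higher, of which Mgst1 lost its call without C57BL/6 mutant replicate 5 or 6 or BALB/c mutant replicate 16 or 17. Ephx2, Cyp2s1, Tiparp, Cyp4v3, Fmo1 and Cyb5b were also lower, and the calls of Cyp2s1, Cyp4v3, Fmo1 and Cyb5b ended with total-count scaling. Those of Cyp2s1 and Tiparp were also lost without C57BL/6 mutant replicate 5 or BALB/c mutant replicate 16 or 17, and that of Cyp2s1 without 18. Por did not pass between the mutants, at 43.9 to 60.01 CPM in C57BL/6 and 46.3 to 55.8 CPM in BALB/c (SE of the log2 difference 0.14, adjusted p 0.991, edgeR).

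**Figure D5:**
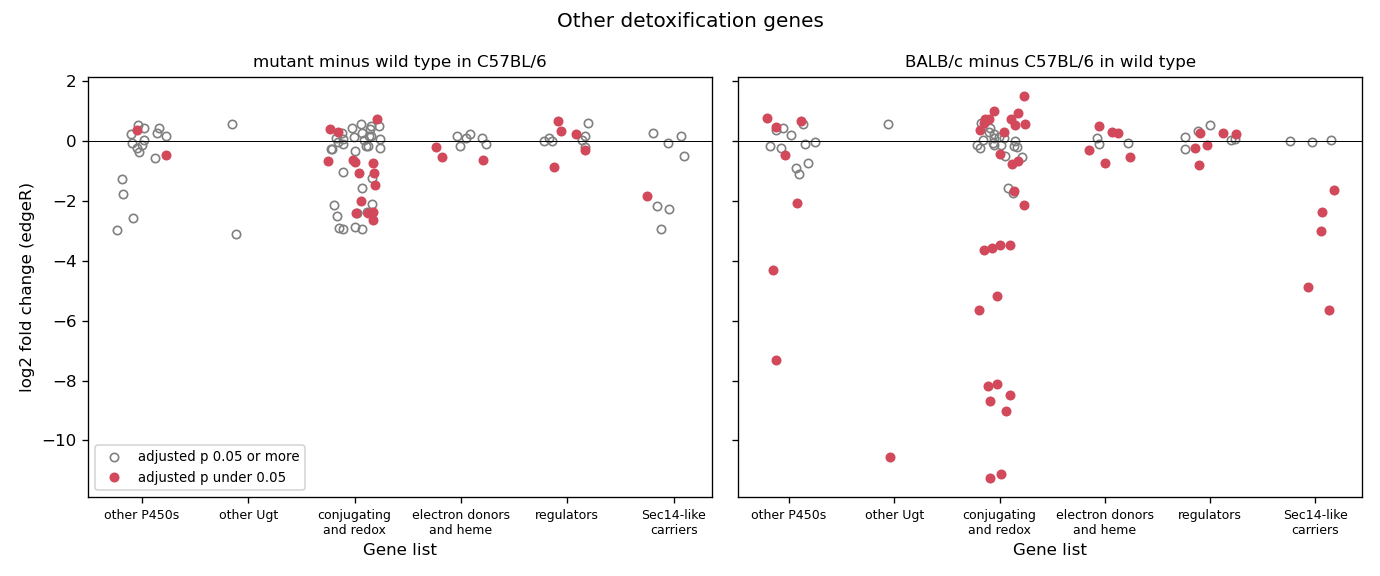
Points are the log2 fold changes fitted by edgeR for the 98 tested genes of the 6 lists, with mutant against wild type in C57BL/6 on the left and BALB/c against C57BL/6 in wild type on the right, filled where the adjusted p is under 0.05. On the left 7 filled points lie above 0 and 19 below, and on the right 20 lie above and 34 below. Points below -8 belong to genes with few or 0 counts in BALB/c, whose fitted size depends on the prior count.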

How the data were processed

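The authors deposited raw gene counts, and RPKM values beside them, in 1 table for the 12 libraries. The submitters' processing notes name bcl2fastq, TopHat2 2.0.6, HTSeq, DESeq2 and mm10. The annotation and the strand setting are not given in the sources used here. Member coordinates equal those of RefSeq GRCm38.p6. The deposited RPKM values divide counts by a library total of which gene counts were 75.6% to 80.7% in C57BL/6 and 86.4% to 88.0% in BALB/c. They served only to compare genes within a library.

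Counts of all genes were fitted with edgeR 4.0.16 (R 4.3.3): quasi-likelihood, 1 mean for each of 4 groups, 12 libraries, TMM scaling, filterByExpr (minimum count 10, total 15), 16190 genes, Benjamini-Hochberg adjustment, call at 0.05. CPM is a count over the TMM-adjusted library size. All 6 members passed the filter, through the C57BL/6 groups. Because every count was even, the limit for a count of 0 was set at 3 read pairs (6 counts), where 3 counts had been planned. Levels used exact 95% Poisson intervals. Alternatives were DESeq2 1.42.0, RLE size factors, total counts, no filter, leaving out each library and, added after seeing the data, counts halved to read pairs. On simulated counts for C57BL/6 mutant against wild type with 16190 genes, edgeR recovered 80% of changed genes at a log2 change of 1 and 94% at 2.

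The members, gene lists, markers and tests were chosen with earlier results of these data known. Listed genes named are up to 8 per contrast and direction with the largest called changes and a mean of at least 1 CPM, close relatives of the members, Por and Ahr; others named were chosen after their values were seen. Likeness skipped unnamed genes and those under 1 CPM. Listed symbols were matched in 4 cases through RefSeq synonyms (Aox2 to Aox3l1, Cyb5a to Cyb5, Dnah5 to Dnahc5, Dnai1 to Dnaic1). There were 26 identifiers on 69 rows, kept as separate rows and not named. Promoters and motifs came from RefSeq GRCm38.p6 tables, and exons and 50-base words from GENCODE transcripts of GRCm38. The authors' deposited table of comparisons was not used here.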

Additional observations from a re-analysis of the deposited data

Results flagged for a closer look

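For 8 of the 98 listed genes tested, against 10% of all genes, the difference between mutant and wild type differed between the strains. This was a test of the difference itself (edgeR, interaction of strain and genotype, genotype difference in BALB/c minus that in C57BL/6). Whether it came from the mutation was not tested, and sex was uneven across the groups. One of the 8, Mgst2, had a mean of 0.827 CPM, under the 1 CPM set for naming, and a log2 difference of 2.44 (adjusted p 0.0159, edgeR). Among the other 7, the log2 difference of effects was 1.57 for Mgst1 (adjusted p 0.0334), 1.06 for Nqo1 (adjusted p 0.0357), 0.73 for Por (adjusted p 0.0385) and 0.62 for Mgst3 (adjusted p 0.0248). It was -0.89 for Ephx2 (adjusted p 0.0264), -0.80 for Tiparp (adjusted p 0.0312) and -0.40 for Rxra (adjusted p 0.0445). Por, which serves the P450 enzymes, was at 60.01, 43.9 and 46.7 CPM in C57BL/6 mutants, 45.9 to 47.8 CPM in BALB/c wild type and 46.3 to 55.8 CPM in BALB/c mutants, with C57BL/6 wild type at 68.6 to 96.2 CPM. Each of these 7 lost its call in 5 to 11 of 17 alternatives, with adjusted p up to 0.146 (edgeR, Rxra).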

How the results depend on the processing

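The C57BL/6 mutant means of the 6 genes fell to between 0 and 0.154 CPM without replicate 4. In 723 refits of 62 calls of listed genes given by name, 592 kept the call, 131 kept only the direction and 0 reversed. Of those not called, Cyp1b1 between C57BL/6 genotypes ran from -0.41 to 0.19 (log2) when single libraries were left out, above 0 without wild type replicate 1. Por between the mutants, near 0, ran from -0.086 to 0.15 in the same way, and was 0.11 with total-count scaling, 0.00292 with no filter and 0.00141 with halved counts. When single libraries were left out, the number of listed genes called ran from 13 to 50 between genotypes in C57BL/6, from 41 to 52 between wild types, from 20 to 33 between mutants and from 1 to 28 for the difference of genotype effects, and was 0 throughout between genotypes in BALB/c. For that difference DESeq2 called 14 against 8 by edgeR, and 16.6% of all genes against 10%. The cause was not tested. With GENCODE lengths, chosen after seeing the data, the log2 ratio of Sec14l3 to Cyp2g1 RPKM in mutant replicate 4 turned from -0.50 to 0.082, since the Sec14l3 transcript is shorter there. Over all genes, calls between genotypes ran from 1724 to 4833 in C57BL/6 and from 0 to 95 in BALB/c, with 323 by DESeq2 against 22 by edgeR. Total-count scaling moved the median of all genes by -0.11 between wild types and 0.12 between mutants. Where 1 library was left out of a group of 3, the model shared its spread with the other groups. No paired analysis was possible because the groups share no replicate numbers. Depth limits the 8 libraries at or near 0. Taken gene by gene, differences of the 6 genes among them lie within the 3 read pairs that a count of 0 allows, or within overlapping counting intervals. Summed over the 6 genes, C57BL/6 mutant replicates 5 and 6 held 7 and 12 read pairs, against 0 in each BALB/c wild type library. This difference of the sums was not tested.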
